A study of Mus musculus with 6 samples.

Results

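Calcineurin is a calcium-activated phosphatase built from a catalytic subunit and a regulatory subunit. It removes phosphates from the NFAT transcription factors, which then enter the nucleus and bind DNA together with partners such as AP-1. The regulator of calcineurin, Rcan1, binds the phosphatase, and its shorter form is known from other cells as a transcript that NFAT switches on from an internal promoter. In bone, the pathway is best known for Nfatc1 in osteoclasts, and it also acts in osteoblasts. The genes described here are the catalytic subunits Ppp3ca and Ppp3cb, the regulatory subunit Ppp3r1, the regulator Rcan1, and the transcription factors Nfatc1, Nfatc3 and Nfatc4. They were chosen by symbol, though with earlier results of these data known, and every transcript listed under these 7 symbols was used. They hold 18 of the 37478 transcripts of the deposited table and 7 of its 13659 gene symbols.

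Expression was measured by RNA-seq in MC3T3-E1 cells, an osteoblast-like line from mouse calvaria of which subclone 4 was grown in medium with serum. The 3 PTH libraries came from cells given PTH(1-34), an active fragment of parathyroid hormone, which activates a receptor that signals through cyclic AMP and through calcium. The 3 vehicle libraries came from the same line given the solvent. The time under treatment is uncertain, since the sample characteristics state 30 min and the protocol text 2 h. Neither group carries a genetic change in the labels, no dose is given, and separate cultures are not stated for the libraries of a group. The p-values therefore rest on the spread between these libraries, which may be technical.

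Levels are in FPKM as the authors deposited them, a unit that divides fragments by transcript length and by the mapped fragments of the library. FPKM totals lay between 618221 and 814133 with PTH and between 677257 and 853916 with vehicle, and the depth in reads is unknown. A microRNA gene alone made up 21.6% to 39.6% of the total with PTH and 19.0% to 35.6% with vehicle. Values divided by the library total therefore depend on that gene. A tested gene had a median level of 10.8 to 10.9 FPKM per PTH library and 11.8 to 11.9 FPKM per vehicle library. Across the 11628 tested genes the log2 change had a median of -0.15, and centring each library on its median moved it to -0.03. For the sums of the members, and for transcripts whose call changes, small changes are given with both scalings. All 8 osteoblast markers were tested. Runx2, which directs osteoblast fate, stood at 67.2, 66.3 and 72.8 FPKM in the PTH libraries and at 53.0, 57.4 and 64.9 FPKM in the vehicle libraries. Of 8 osteoclast and macrophage markers, 3 were listed. Csf1r and Cd68 stayed at or below 0.425 FPKM in every PTH library and at or below 0.617 FPKM in every vehicle library. Ctsk, which osteoclasts are known for, averaged 141.5 FPKM with PTH and 139.5 FPKM with vehicle. Of 5 chondrocyte markers, 2 were tested. Sox9, a chondrocyte factor, averaged 24.0 FPKM with PTH and 8.62 FPKM with vehicle, a log2 rise of 1.44 (limma adjusted p = 0.000147), and Col2a1, cartilage collagen, averaged 4.33 FPKM with PTH and 2.50 FPKM with vehicle and was not called (adjusted p = 0.303). Comp, a cartilage matrix protein under the level for testing, averaged 0.307 FPKM with PTH and 0.530 FPKM with vehicle, with every PTH library lower. Fabp4 of fat cells and Des of muscle, each the only listed one of 5 markers, reached at most 0.600 and 1.05 FPKM with PTH and 0.722 and 1.51 FPKM with vehicle. None of the 4 endothelial and 4 T cell markers searched for was listed, so their levels are unknown. The part of other cells in the results was not tested. In bulk RNA, fewer cells of a type and less RNA per cell cannot be told apart.

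Among the 7 genes, Rcan1, Nfatc1 and Nfatc4 rose with PTH, Nfatc3 and Ppp3cb fell, and Ppp3ca and Ppp3r1 did not pass the test (limma on log2(FPKM + 0.5), Benjamini-Hochberg adjusted p under 0.05 over all tested genes). Over all tested genes, 10.8% were called higher and 41% lower. The 3 PTH libraries lay above the 3 vehicle libraries for 3 of the 7 genes and below them for 2, beside 13.1% and 47.5% of all tested genes. With centred libraries 5 of the 7 genes were called higher and 1 lower, beside 18.3% and 24% of all tested genes. The median log2 change of the 7 genes was 0.12. By mean FPKM sum the order with PTH was Ppp3r1, Nfatc4, Ppp3cb, Ppp3ca, Nfatc1, Nfatc3 and Rcan1, where Ppp3cb and Ppp3ca, and Nfatc3 and Rcan1, overlapped between libraries. With vehicle it was Ppp3r1, Ppp3cb, Nfatc4, Ppp3ca, Nfatc3, Nfatc1 and Rcan1, where Ppp3cb and Nfatc4 overlapped.

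**Figure D1:**
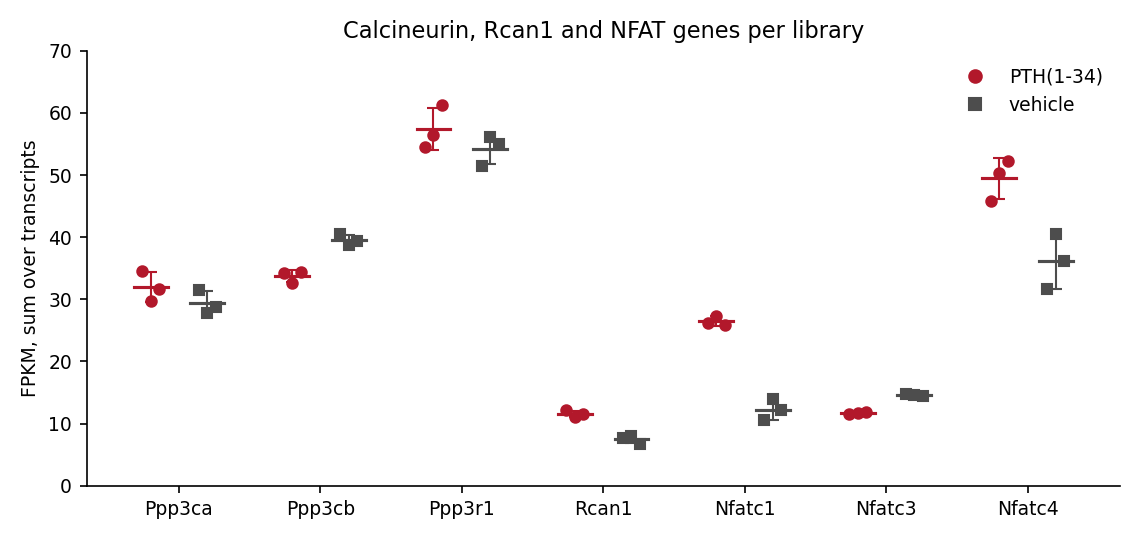
FPKM summed over the transcripts of each gene, on a linear axis, for the 3 PTH libraries (circles) and the 3 vehicle libraries (squares). Long bars are means and error bars are SD (n = 3). The groups overlap for Ppp3ca and Ppp3r1 and are apart for the other 5 genes, most widely for Nfatc1, with 25.8 to 27.3 FPKM with PTH and 10.5 to 13.9 FPKM with vehicle.

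The subunit genes of calcineurin changed little. Ppp3ca, the alpha isoform of the catalytic subunit, stood at 34.6, 29.7 and 31.6 FPKM in the PTH libraries and at 31.6, 27.8 and 28.7 FPKM in the vehicle libraries. The groups overlapped, and the log2 difference of 0.12 (95% interval -0.05 to 0.30) did not pass the test (limma adjusted p = 0.210). The libraries of the same number deviated together, and with the number as a block the same difference passed (adjusted p = 0.0238), as it did with centred libraries (0.24, adjusted p = 0.0305). Its transcripts Ppp3ca-201 and Ppp3ca-202, which encode proteins of 521 and 511 residues, each carried close to the same share of the gene, 50.1% ± 1.53 and 49.9% ± 1.53 with PTH, against 47.2% ± 1.53 and 52.8% ± 1.53 with vehicle (SD, n = 3). Their log2 changes were 0.20 (adjusted p = 0.0759, 0.0327 with the block, and with centred libraries 0.32, adjusted p = 0.0246) and 0.04 (adjusted p = 0.769), and unequal change between them was not called (diffSplice Simes adjusted p = 0.486).

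Ppp3r1, the calcium-binding regulatory subunit, had the highest sum of the 3 subunit genes, at 54.5, 56.5 and 61.2 FPKM in the PTH libraries and 51.5, 56.1 and 55.0 FPKM in the vehicle libraries. These groups overlapped too. The log2 difference was 0.08 (95% interval -0.06 to 0.22, limma adjusted p = 0.284) in the deposited values and 0.21 (adjusted p = 0.0324) with centred libraries. The coding transcript Ppp3r1-201 held 98.5% to 98.9% of the gene with PTH and 98.4% to 99.0% with vehicle. The non-coding Ppp3r1-202 stood at 0.703 to 0.838 FPKM with PTH and 0.568 to 0.879 FPKM with vehicle, under the mean of 1 FPKM that testing required.

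Ppp3cb, the beta isoform of the catalytic subunit, stood at 34.2, 32.6 and 34.4 FPKM in the PTH libraries and at 40.4, 38.8 and 39.4 FPKM in the vehicle libraries. Every PTH library was below every vehicle library, and the log2 fall of -0.23 (SE 0.04) passed in the deposited values (limma adjusted p = 0.00435). With centred libraries it was -0.10 and did not pass (adjusted p = 0.0860), though it did with the replicate block added (0.0495). Its main transcript, Ppp3cb-206, which ends 6119 to 8307 bases before the others, did not follow the sum: it stood at 18.4, 16.9 and 17.7 FPKM in the PTH libraries and 17.5, 16.2 and 16.99 FPKM in the vehicle libraries (log2 difference 0.06, adjusted p = 0.428, and with centred libraries 0.18, adjusted p = 0.0683, or 0.0316 with the block added). Its share of the gene was 52.4% ± 1.34 with PTH and 42.7% ± 0.825 with vehicle (SD, n = 3).

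The remaining Ppp3cb transcripts lay lower with PTH. Ppp3cb-201 averaged 4.98 ± 0.678 FPKM with PTH and 7.41 ± 0.539 FPKM with vehicle (SD, n = 3), a log2 fall of -0.54 (limma adjusted p = 0.0135) that was -0.42 with centred libraries (0.0340) and did not pass with TPM, values divided by the library total (0.197), cyclic loess (0.0577) or without library 1 of both groups (0.0528). Ppp3cb-205 averaged 8.58 ± 0.260 FPKM with PTH and 10.5 ± 0.616 FPKM with vehicle (SD, n = 3), a fall of -0.28 (adjusted p = 0.0190) that did not pass with centred libraries (adjusted p = 0.125) or without PTH 2, PTH 3, vehicle 1 or vehicle 2 (0.0592 to 0.0642). Ppp3cb-208, a short transcript with a retained intron and no coding sequence, stood at 2.15, 1.83 and 2.05 FPKM in the PTH libraries and 4.13, 4.09 and 3.81 FPKM in the vehicle libraries. Its level with PTH was 0.501 times that with vehicle, a log2 fall of -0.85 (SE 0.09, adjusted p = 0.00132), and its share was 5.95% ± 0.333 with PTH and 10.1% ± 0.450 with vehicle (SD, n = 3). Ppp3cb-202 stood at 0.365 to 0.616 FPKM with PTH and 0.640 to 0.791 FPKM with vehicle and was not tested. Unequal change between the transcripts was called by diffSplice (Simes adjusted p = 0.000335), but not with TPM (0.105), and the authors' deposited table gives q from 0.753 upward for each Ppp3cb transcript. In a test of each transcript's log2 ratio to the rest of its gene, added after the data were seen, Ppp3cb-208 passed (adjusted p = 0.0335, but 0.119 with the replicate block and 0.0938 to 0.119 when a library was left out) and Ppp3cb-206 did not (0.0635).

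Rcan1 exchanged its transcripts with PTH: the short form from the internal start rose, the long form from the upstream start fell, and on the log2 scale the sum of the forms changed less than either. Rcan1 (ENSMUSG00000022951) occupies the minus strand of chromosome 16 between 92391953 and 92470867 in GENCODE M21 (GRCm38, the assembly also called mm10), and the table held 2 of its 7 annotated transcripts. Rcan1-201 (ENSMUST00000023672) starts at 92400077 and encodes 198 residues, and Rcan1-202 (ENSMUST00000060005) starts 66069 bases upstream at 92466146 and encodes 251 residues. Each has 4 exons. They share 2008 identical bases downstream of the first exon and end within 2 bases of each other, so the first exon tells them apart. The fragments that decide between the forms fall on the first exons and their junctions, so the coding parts of these exons are shown (letters from the GENCODE M21 transcripts). These parts make up 87 of 182 bases in Rcan1-201 and 246 of 314 bases in Rcan1-202. The start codon is in capitals. The coding parts encode the first 29 residues of the short form and the first 82 residues of the long form.
Rcan1-201, chr16:92399896-92399982, minus strand: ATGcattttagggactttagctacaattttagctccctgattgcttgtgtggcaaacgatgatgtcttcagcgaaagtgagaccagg
Rcan1-202, chr16:92465833-92466078, minus strand: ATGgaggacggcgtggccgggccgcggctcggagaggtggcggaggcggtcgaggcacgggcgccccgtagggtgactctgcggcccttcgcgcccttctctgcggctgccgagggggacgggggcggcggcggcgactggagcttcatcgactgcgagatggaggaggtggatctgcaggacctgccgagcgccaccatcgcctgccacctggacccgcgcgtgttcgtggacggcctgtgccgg

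**Figure D2:**
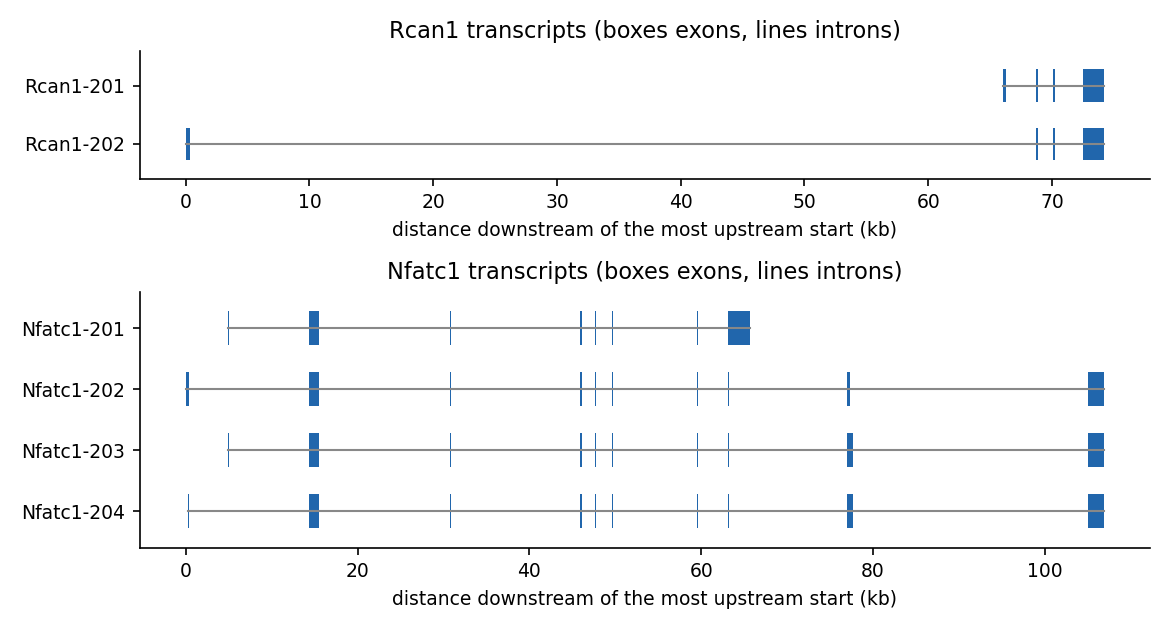
Exon maps of the Rcan1 and Nfatc1 transcripts of the deposited table, drawn to scale in kilobases from the most upstream start of each gene, with boxes for exons and lines for introns (very short exons are drawn at a minimum width). The Rcan1 forms differ in their first exon, and Nfatc1-201 ends 41230 bases before the other Nfatc1 transcripts.

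Rcan1-201 stood at 10.8, 9.54 and 10.6 FPKM in the PTH libraries and at 3.65, 3.97 and 3.23 FPKM in the vehicle libraries. Every PTH library was far above every vehicle library. Its mean was 2.85-fold higher with PTH, or 1.40 on the log2 scale (SE 0.09, limma adjusted p = 0.000218). Rcan1-202 stood at 1.32, 1.56 and 0.943 FPKM in the PTH libraries and at 4.06, 3.96 and 3.51 FPKM in the vehicle libraries. Here every PTH library was below every vehicle library, with a mean 0.332 times as high with PTH and a log2 fall of -1.30 (SE 0.15, adjusted p = 0.00185).

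The short form held 89.1%, 86.0% and 91.8% of the Rcan1 FPKM in the PTH libraries and 47.4%, 50.02% and 47.9% in the vehicle libraries. The difference of the mean shares was 40.5 percentage points (exact permutation test, two-sided, p = 0.1, the smallest that 3 against 3 libraries allow). Shares within a gene do not depend on the scaling of a library. The change of the short form relative to the long form was 2.70 on the log2 scale (diffSplice adjusted p = 1.27e-05, and Simes adjusted p = 7.66e-06 for the gene). The log2 ratio test gave adjusted p = 0.00302, 0.0474 with the replicate block, and 0.00768 to 0.0237 when a library was left out.

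Summed over the forms, Rcan1 stood at 12.1, 11.1 and 11.5 FPKM in the PTH libraries and at 7.71, 7.93 and 6.74 FPKM in the vehicle libraries. The groups were apart, and the sum was 1.55-fold higher with PTH (log2 0.60, SE 0.07, limma adjusted p = 0.000757). In the authors' deposited table, whose groups are named only q1 and q2, the log2 ratio of q2 over q1 was 1.93 for Rcan1-201 (q = 0.00111) and -1.41 for Rcan1-202 (q = 0.0299).

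**Figure D3:**
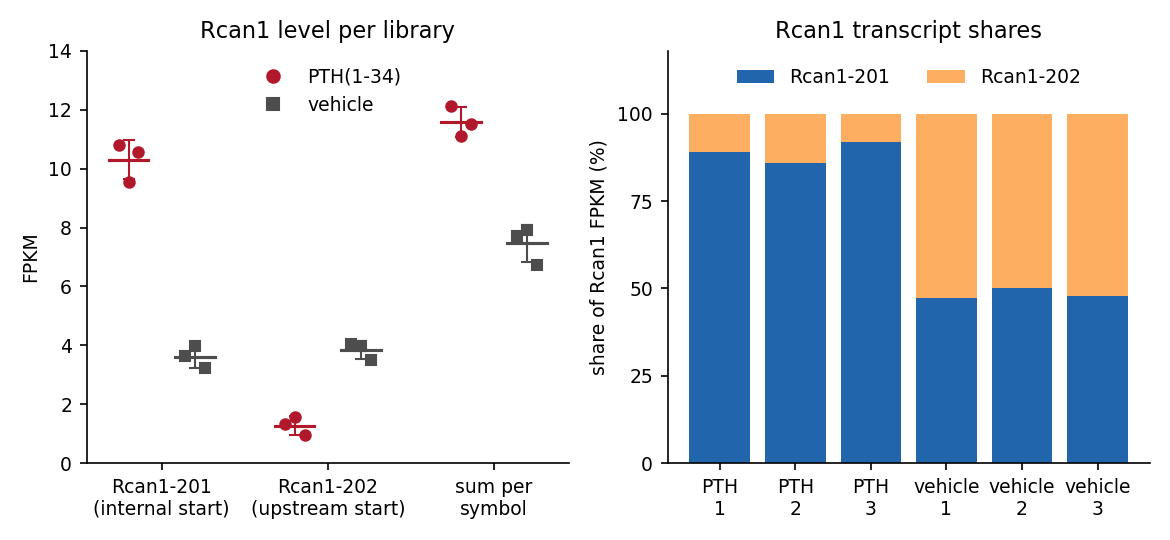
Left, FPKM of the Rcan1 transcripts and of their sum in the 3 PTH libraries (circles) and the 3 vehicle libraries (squares), with means and SD (n = 3). Right, the share of each transcript in the Rcan1 FPKM of each library in percent, where Rcan1-201 holds 86.0% to 91.8% with PTH and 47.4% to 50.02% with vehicle.

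The windows before the Rcan1 starts are shown because the forms that they precede moved in opposite directions. Each holds the 250 bases before a RefSeq start (GRCm38.p6), which lies 1 base from the annotated start of Rcan1-201 and 23 bases from that of Rcan1-202. They were searched on both strands for the NFAT core GGAAA, the cyclic AMP response element (CRE) TGACGTCA, its core TGACG and the AP-1 site TGANTCA, and matches are in capitals. The window of the short form held 3 NFAT cores, at 227, 193 and 163 bases before the start, 1 CRE at 175 bases and 1 AP-1 match at 110 bases. The 2 matches of TGACG lie inside the CRE. The window of the long form held no match of the 4 motifs.
Rcan1 internal start, chr16:92400079-92400328, minus strand: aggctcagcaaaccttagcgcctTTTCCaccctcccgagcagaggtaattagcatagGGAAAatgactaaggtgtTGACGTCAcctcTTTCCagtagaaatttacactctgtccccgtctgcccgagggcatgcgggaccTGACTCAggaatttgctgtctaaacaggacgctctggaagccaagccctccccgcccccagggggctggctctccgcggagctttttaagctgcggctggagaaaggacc
Rcan1 upstream start, chr16:92466170-92466419, minus strand: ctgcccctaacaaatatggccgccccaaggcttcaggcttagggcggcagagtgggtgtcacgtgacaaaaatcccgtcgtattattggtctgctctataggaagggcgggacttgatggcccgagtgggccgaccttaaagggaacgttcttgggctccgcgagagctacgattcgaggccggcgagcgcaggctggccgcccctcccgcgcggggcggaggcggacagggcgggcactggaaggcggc

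Among all 32851 promoter windows of the same length, 55.6% held the NFAT core, 6.39% held it 3 times or more, 1.55% held the CRE, 17.8% held TGACG and 6.75% held the AP-1 match. A match is a run of letters and not a measured site. Windows of Nfatc1 and Ppp3ca were not analysed here. Of the other members, the window of Nfatc4 and that of Ppp3cb held 3 NFAT cores each and none of the other motifs, 1 of the 2 Nfatc3 windows held 1 NFAT core and 1 TGACG, and the Ppp3r1 window held 1 TGACG. The members whose windows held 3 NFAT cores include Rcan1 and Nfatc4, called higher, and Ppp3cb, called lower in the deposited values but not with centred libraries. The part of these motifs in the changes was not tested.

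Nfatc1, the NFAT factor that directs osteoclast formation, showed the largest change of the 7 genes. Of the 14.2 FPKM by which its means differed, 13.4 lay in the transcript with the near end. The gene (ENSMUSG00000033016, minus strand) has 7 annotated transcripts, of which 4 were in the table. Nfatc1-201, of 703 residues, shares its start with Nfatc1-203 and ends 41230 bases before the rest. Nfatc1-202, Nfatc1-203 and Nfatc1-204, of 827, 925 and 939 residues, all end at the same far base. Nfatc1-202 and Nfatc1-204 start 4885 and 4593 bases upstream of the other 2. An annotated form that joins an upstream start to the near end was not analysed here, so its level was not measured apart from these 4.

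Summed over transcripts, Nfatc1 stood at 26.1, 27.3 and 25.8 FPKM in the PTH libraries and at 10.5, 13.9 and 12.2 FPKM in the vehicle libraries. Every PTH library was above every vehicle library, and the mean was 2.17-fold higher with PTH (log2 1.09, SE 0.10, limma adjusted p = 0.000247). Nfatc1-201 stood at 17.8, 16.7 and 17.6 FPKM in the PTH libraries and at 3.27, 4.33 and 4.15 FPKM in the vehicle libraries. It was 4.43-fold higher with PTH, a log2 change of 2.02 (SE 0.10, adjusted p = 8.06e-05), and its share of the gene was 68.2%, 61.0% and 68.0% in the PTH libraries and 31.2%, 31.2% and 34.0% in the vehicle libraries.

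The transcripts with the far end did not move together. Nfatc1-202 stood at 4.92, 6.10 and 5.14 FPKM in the PTH libraries and at 3.70, 5.55 and 3.93 FPKM in the vehicle libraries, which overlap (log2 difference 0.28, 95% interval -0.10 to 0.66, limma adjusted p = 0.234). This difference passed without vehicle 2 (0.44, adjusted p = 0.0464) and with centred libraries and the replicate block (0.40, adjusted p = 0.0309). Nfatc1-203 stood at 0.869, 2.61 and 0.923 FPKM in the PTH libraries and at 3.53, 4.03 and 4.12 FPKM in the vehicle libraries, with PTH 2 far above the other PTH libraries. Its share of the gene was 3.33%, 9.53% and 3.57% in the PTH libraries and 33.6%, 28.9% and 33.8% in the vehicle libraries. Its log2 fall of -1.27 (SE 0.32, adjusted p = 0.0269) was -1.65 without PTH 2 (adjusted p = 0.00151) and did not pass when any of the other 5 libraries was left out (0.0592 to 0.0805). Nfatc1-204 stood at 2.52, 1.97 and 2.22 FPKM in the PTH libraries and was listed below 0.0001 FPKM in every vehicle library. A value so near 0 in a file without counts can be a failed estimate, so no fold is given. Nfatc1-203 and Nfatc1-204 share 9 exons and differ in 1 exon each, so their levels were estimated from largely the same sequence. Whether the fall of Nfatc1-203 is separate from this listing was not tested. Nfatc1-204 reached the mean of 1 FPKM that testing required through the PTH libraries alone, so it had to differ to be tested, and its call supports nothing.

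Grouped by end, the near end stood at 17.3 ± 0.594 FPKM with PTH and 3.92 ± 0.571 FPKM with vehicle (SD, n = 3). The far end summed to 8.30, 10.7 and 8.28 FPKM in the PTH libraries and to 7.22, 9.58 and 8.05 FPKM in the vehicle libraries. These sums overlap (exact permutation test, two-sided, p = 0.5), and their mean was 1.10-fold higher with PTH. This grouping was chosen after the data were seen. Grouped by start, the downstream start summed to 18.7, 19.3 and 18.5 FPKM in the PTH libraries and to 6.80, 8.36 and 8.28 FPKM in the vehicle libraries, and its share was 71.2% ± 0.592 with PTH and 64.2% ± 3.89 with vehicle (SD, n = 3). Of the upstream starts, that of Nfatc1-202 held 20.3% ± 1.77 with PTH and 35.8% ± 3.89 with vehicle (SD, n = 3), and that of Nfatc1-204 held 8.48% ± 1.22 with PTH against the near-0 listing with vehicle. PTH minus vehicle, the share of the near end differed by 33.6 percentage points. That of the downstream start differed by 6.95 and that of the Nfatc1-202 start by -15.4. Each had an exact permutation p of 0.1, the smallest possible. The starts of Nfatc1-202 and Nfatc1-204 lie 292 bases apart, and grouping starts within 1000 bases joined them. Their sum was 7.43, 8.07 and 7.36 FPKM in the PTH libraries and 3.70, 5.55 and 3.93 FPKM in the vehicle libraries. The share of this joint group differed by -6.95 percentage points, so the -15.4 depends on the listing of Nfatc1-204.

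Unequal change between the Nfatc1 transcripts, Nfatc1-204 included, was called by diffSplice (Simes adjusted p = 1.50e-06). Because Nfatc1-204 passed the filter through the PTH libraries alone, no conclusion is drawn from this call. The rest of the gene in the log2 ratio test holds Nfatc1-204 too. In the log2 ratio test, Nfatc1-201 rose against the rest of the gene by 1.90 (adjusted p = 0.00527, 0.0118 to 0.0324 when a library was left out, and 0.0502 with the replicate block, which no longer passes). Of the Nfatc1 transcripts, Nfatc1-203 had the largest fall against the rest of the gene, -2.81 (adjusted p = 0.0151, 0.0776 with the block, and 0.0570 to 0.0687 without any library other than PTH 2). In the authors' deposited table the log2 ratio of q2 over q1 was 2.31 for Nfatc1-201 (q = 0.00111), 0.36 for Nfatc1-202 (q = 0.656) and -1.36 for Nfatc1-203 (q = 0.699), and Nfatc1-204 had q = 0.888.

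**Figure D4:**
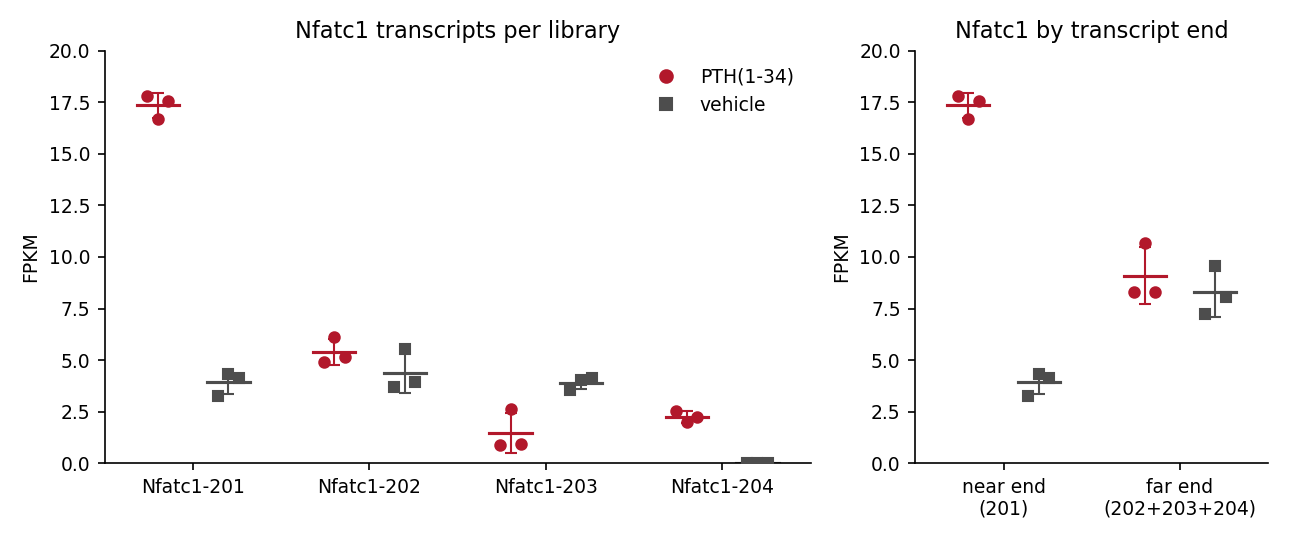
FPKM of the 4 Nfatc1 transcripts (left) and of the sums over transcripts with the near or the far end (right) in the 3 PTH libraries (circles) and the 3 vehicle libraries (squares), with means and SD (n = 3), on linear axes from 0. The near end lies at 16.7 to 17.8 FPKM with PTH and 3.27 to 4.33 FPKM with vehicle, while the far-end sums of the groups overlap.

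Nfatc3, an NFAT factor present in many tissues, was measured by 1 transcript, Nfatc3-201, of 1076 residues. It stood at 11.5, 11.6 and 11.9 FPKM in the PTH libraries and at 14.8, 14.6 and 14.4 FPKM in the vehicle libraries. The groups did not overlap, and the gene was 0.801 times as high with PTH, a log2 fall of -0.31 (SE 0.04, limma adjusted p = 0.00120). With centred libraries the fall was -0.18 (adjusted p = 0.0138), and with TPM it did not pass (-0.22, adjusted p = 0.532). The authors' deposited table gives a log2 ratio of -0.15 for q2 over q1 (q = 0.737).

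Nfatc4 had the highest FPKM sum of the 3 NFAT genes in both groups, with 45.8, 50.3 and 52.2 FPKM in the PTH libraries and 31.6, 40.5 and 36.2 FPKM in the vehicle libraries. The groups were apart, and the mean was 1.37-fold higher with PTH (log2 0.45, SE 0.10, limma adjusted p = 0.00745). Its transcripts start 242 bases apart and end within 2 bases of each other. Nfatc4-202 stood at 36.2, 39.0 and 40.4 FPKM in the PTH libraries and 26.6, 33.0 and 31.1 FPKM in the vehicle libraries (log2 0.35, adjusted p = 0.0275, and 0.0629 to 0.0860 without PTH 2, PTH 3 or vehicle 3, and 0.186 with TPM). Nfatc4-201 stood at 9.66, 11.3 and 11.8 FPKM in the PTH libraries and 4.97, 7.45 and 5.18 FPKM in the vehicle libraries (log2 0.86, adjusted p = 0.00936). Both transcripts rose, and the share of Nfatc4-201 was 22.1% ± 0.853 with PTH and 16.1% ± 2.09 with vehicle (SD, n = 3). Unequal change was not called (diffSplice Simes adjusted p = 0.144), except without vehicle 2 (adjusted p = 0.0367).

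Of the 18 transcripts of the 7 genes, 16 reached a mean of 1 FPKM and were tested. Of these, 5 were called higher (Nfatc1-204 among them, whose call is void as described), 6 lower and 5 not called, beside 8.13% higher and 22.2% lower among all 21983 tested transcripts. Rcan1 and Nfatc1 each held a transcript called higher and another called lower. This pattern was found in 1.35% of the 4818 genes with at least 2 tested transcripts. Because the members were chosen with earlier results of these data known, its count among them is a description only. In Nfatc1 the opposed transcripts were Nfatc1-201 and Nfatc1-203. Nfatc1-203 shares 9 exons with Nfatc1-204, whose listing is doubtful, and whether the fall of Nfatc1-203 is separate from that listing was not tested. Unequal change was called for 3 of 5 member genes, beside 11.7% of all such genes. Among these 3, the call of Nfatc1 came from a fit that included Nfatc1-204, so no conclusion is drawn from it. For single transcripts the shares of all tested were 6.43% by diffSplice and 2.14% by the log2 ratio test.

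**Figure D5:**
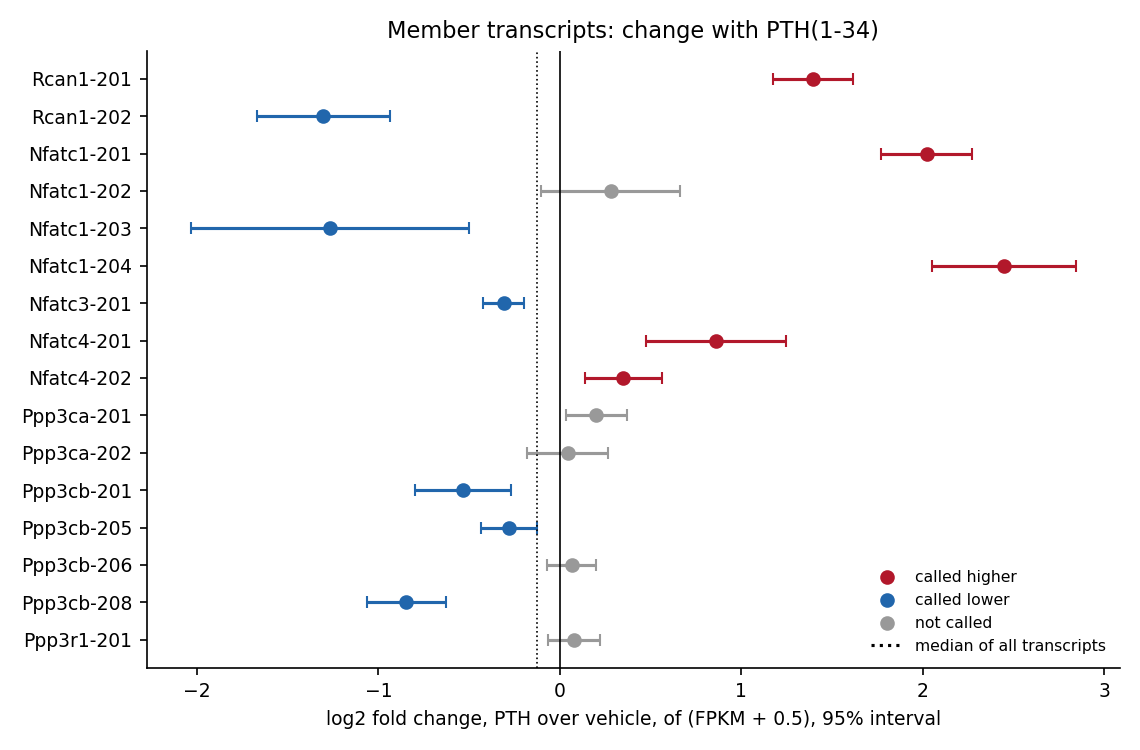
Log2 fold change, PTH over vehicle, of FPKM + 0.5 with its 95% interval (limma) for the 16 tested transcripts, coloured by call at an adjusted p under 0.05; the dotted line is the median of all tested transcripts, -0.13. The Rcan1 transcripts lie at 1.40 and -1.30, and the value and call of Nfatc1-204 are not interpretable, because vehicle is listed near 0 and it passed the filter through PTH alone.

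The other genes of the pathway were taken from lists written with earlier results of these data known, so their counts are descriptions, to be read beside the 10.8% higher, 41% lower and median of -0.15 of all tested genes. Of 14 calcineurin subunits and regulators, 2 were higher, 3 lower and 9 not called in the deposited values (median log2 change -0.04), with 5 higher and 2 lower in the centred ones. Besides the members, Chp1, a calcineurin B homologue that inhibits the phosphatase, stood at 121.0, 106.7 and 118.6 FPKM in the PTH libraries and at 49.95, 47.3 and 50.2 FPKM in the vehicle libraries, with every PTH library higher (log2 1.22, SE 0.06, limma adjusted p = 1.96e-05). Rcan3, a relative of Rcan1, averaged 4.00 FPKM with PTH and 5.75 FPKM with vehicle (log2 -0.47, adjusted p = 0.00122). Cabin1, a protein that binds and inhibits calcineurin, averaged 6.50 FPKM with PTH and 9.60 FPKM with vehicle (log2 -0.53, adjusted p = 0.000372).

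Of the 6 NFAT family genes, 3 were higher and 2 lower, with a median log2 change of 0.21. Nfatc2, the factor best known from T cells, stood at 7.999, 6.45 and 8.63 FPKM in the PTH libraries and at 1.17, 1.46 and 1.35 FPKM in the vehicle libraries. The groups were apart, and it rose (log2 2.16, SE 0.12, limma adjusted p = 3.61e-05). Nfat5, which responds to osmotic stress and does not depend on calcineurin, averaged 13.4 FPKM with PTH and 13.6 FPKM with vehicle (log2 difference -0.03, adjusted p = 0.802). Nfatc2ip, which binds Nfatc2, averaged 2.69 FPKM with PTH and 3.56 FPKM with vehicle (log2 -0.35, adjusted p = 0.00420).

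Of 17 NFAT kinases, scaffolds and export factors, 5 were higher, 4 lower and 8 not called, with a median log2 change of 0.01. Homer1, a scaffold protein, averaged 6.04 FPKM with PTH and 2.16 FPKM with vehicle (log2 1.30, limma adjusted p = 0.000122). Homer3, a relative that competes with calcineurin for NFAT in T cells, averaged 7.10 FPKM with PTH and 9.89 FPKM with vehicle (log2 -0.45, adjusted p = 0.00551). Lrrk2, a kinase reported to hold back NFAT, rose by 0.75 on the log2 scale (adjusted p = 0.000305), and Dyrk2, an NFAT kinase, fell by 0.77 (adjusted p = 0.000260).

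Of 18 genes of calcium entry and release, 4 were higher, 5 lower and 9 not called (median log2 change 0.06), and 9 were higher and 4 lower with centred libraries. The store-operated channel genes Orai2 and Orai3 averaged 5.64 and 4.05 FPKM with PTH, against 8.72 and 7.17 FPKM with vehicle (log2 -0.59 and -0.75, limma adjusted p = 0.00125 and 0.000564). Plcb3, a phospholipase that releases the signal for calcium stores, averaged 19.7 FPKM with PTH and 28.3 FPKM with vehicle (log2 -0.51, adjusted p = 0.000650). Atp2b4, a calcium pump of the plasma membrane, averaged 27.4 FPKM with PTH and 19.2 FPKM with vehicle (log2 0.50, adjusted p = 0.00238).

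Of 14 genes described as NFAT targets in other cells, which include 2 of the members, 9 were higher, 1 lower and 4 not called, and the median log2 change was 0.85. The cytokine gene Il6, the nuclear receptor gene Nr4a1, the prostaglandin synthase gene Ptgs2 and the angiogenic factor gene Vegfa averaged 112.9, 128.3, 55.6 and 257.6 FPKM with PTH, against 0.300, 4.62, 2.52 and 20.8 FPKM with vehicle. The osteoclast target Ctsk (adjusted p = 0.865) and the early response genes Egr2 and Egr3 (adjusted p = 0.658 and 0.612) were not called by limma. F3, tissue factor, was the gene that was lower, with 19.6 FPKM with PTH and 48.7 FPKM with vehicle (log2 -1.31, adjusted p = 0.000696). F3, Egr2, Egr3, Nfat5, Csf1r, Cd68, Col2a1, Comp, Fabp4 and Des were named after their values were seen. Of 12 partner transcription factors of NFAT, 6 were higher, 2 lower and 4 not called (median log2 change 0.41). Fos, Fosl1, Fosl2 and Junb, which encode AP-1 subunits, averaged 133.7, 81.4, 267.8 and 159.5 FPKM with PTH, against 2.16, 2.85, 23.3 and 11.6 FPKM with vehicle. Of the 8 osteoblast markers, 2 were higher and 2 lower: Bglap, osteocalcin, averaged 26.9 FPKM with PTH and 5.04 FPKM with vehicle, and Sp7, which acts after Runx2, averaged 6.79 FPKM with PTH and 42.7 FPKM with vehicle. Runx2 was also called higher (log2 0.24, limma adjusted p = 0.0434, and 0.36 with centred libraries) and Dlx5, a homeobox factor, lower (log2 -0.49, adjusted p = 0.0317, and 0.0867 with centred libraries).

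The tested genes most like each called member over the 6 libraries were found by the Euclidean distance between log2(FPKM + 0.5) values set against the vehicle mean. For Rcan1 these were Tgfb3, Pcgf5 and Cnbp, at distances of 0.108, 0.125 and 0.126 log2 units. For Nfatc1 they were Thbd, Nufip1 and Klf13, at 0.170, 0.172 and 0.172. For Nfatc4 they were Slc16a1, Pde8a and Jak2, at 0.0702, 0.105 and 0.111. Npepl1, Vac14 and Slc25a24 lay nearest to Nfatc3, at 0.0336, 0.0362 and 0.0496, and Zxdb, Mrpl35 and Rfc5 nearest to Ppp3cb, at 0.0364, 0.0366 and 0.0387. Thbd stood at 216.0, 206.0 and 223.8 FPKM in the PTH libraries and 89.4, 116.1 and 107.2 FPKM in the vehicle libraries.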

How the data were processed

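Per the labels' protocols, TRIzol RNA was made into stranded mRNA libraries, and Cufflinks assembled the paired-end reads. The build is mm10, per the submitters' processing notes, and neither aligner nor annotation is named in what was used here. The authors deposited 1 FPKM value per transcript and library, and, per the file headers, a log2 ratio, a p-value and a q-value for their comparison of groups q1 and q2. Over 21935 tested transcripts their log2 ratios had a median of 0.02, against -0.13 for the values computed here, and of the 1039 called transcripts that changed by at least 1 on the log2 scale, 99.6% had the same sign.

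FPKM was summed per symbol over the listed transcripts. Features with a mean of at least 1 FPKM were tested with limma 3.58.1 (R 4.3.3; lmFit, eBayes with trend) on log2(FPKM + 0.5), two-sided, with Benjamini-Hochberg adjustment over all tested features and a threshold of 0.05. This scale understates the change of low features. Unequal change was tested with diffSplice, which treats the transcripts of a gene as independent, and with limma on the log2 ratio of a transcript to the rest of its gene. Scripts were tested on simulated data. Deviations from the group means correlated at 0.42, 0.28 and 0.28 between PTH and vehicle libraries of the same number, which the titles give. The correlations were negative between different numbers, which deviations from a group mean largely force. The numbers thus appear to pair the libraries. The main fits did not use this pairing, which entered only as the replicate block. Transcript structure comes from GENCODE M21, where 97.5% of the transcripts were found. Starts or ends within 100 bases were grouped. Alternatives were pseudocounts, filters, centring, TPM, cyclic loess, the replicate block, leaving out libraries and, for starts, grouping within 1000 bases.

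Named were all members with every transcript, up to 4 list genes with the largest called change (where none passed, the highest mean), and the 3 genes most like each called member; Gm, Rik, Mir, Snor and date-like symbols were not named. The members and lists were chosen with earlier results of these data known.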

Additional observations from a re-analysis of the deposited data

How the results depend on the processing

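The log2 changes of the Rcan1, Nfatc1 and Nfatc4 sums kept their direction and call in every alternative run for genes. The opposed calls of the Rcan1 transcripts did so in every alternative run for transcripts but the minimum of 5 FPKM, where Rcan1-202 was not tested. Among the calcineurin genes, Ppp3ca passed with centring (0.24), the replicate block (0.12), the block with centring (0.24) and cyclic loess (0.23). Ppp3r1 passed with centring, without or with the block (0.21). Ppp3cb did not pass with centring (-0.10) or TPM (-0.13), and its highest transcript alone gave 0.064, the opposite sign. Nfatc3 did not pass with TPM (-0.22), where its SE was 0.19 against 0.04 in the deposited values. With deposited values the block changed no other gene call of a member; with centring it also brought Ppp3cb past the threshold (-0.10, adjusted p = 0.0495).

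Against 1252 genes called higher and 4765 lower, centring gave 2131 and 2792, the block with centring 2890 higher, cyclic loess 2345 and 2051, and TPM 1158 lower. Against 1787 transcripts higher and 4883 lower, a minimum of 5 FPKM gave 1142 and 2861, centring 2679 lower, the block with centring 2951 and 3016, TPM 878 lower and cyclic loess 2218 lower. Leaving out libraries gave 2803 to 3889 transcripts lower. The 564 genes with unequal change became 921 with no filter, 170 at a minimum of 5 FPKM, 192 with TPM and 359 to 477 without libraries. The cause was not tested. Cyclic loess and the log2 ratio test were chosen after seeing the data, and the motif search in 1000 bases was not run. Depth is unknown, so the counting error of low transcripts could not be estimated.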
